A study of Mus musculus with 6 samples.

Results

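DNA replication and G1/S phase genes were examined in activated mouse CD4+ T cells. The set was defined by gene name, and it was chosen with earlier results of these data known. It holds 49 genes of the replication machinery and of entry into S phase. A member was measured where the array annotation assigned a probe set to its symbol alone, and the brightest such probe set over the 6 arrays was used. This left 47 of the 49 members, among 22180 genes in all. Rfc4, a clamp loader subunit, and Ccne2, cyclin E2, dropped out because their probe sets are also assigned to Eif4a2 and Ints8.

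Before a cell can copy its DNA, the origin recognition complex, Cdc6 and Cdt1 load the MCM helicase onto origins in G1. Cyclin-dependent kinases and Cdc7 then recruit Cdc45 and GINS, the helicase starts to unwind, and primase, the polymerases and the sliding clamp PCNA follow. D-type and E-type cyclins with Cdk4 and Cdk2 phosphorylate the retinoblastoma family, which releases E2F factors to transcribe much of this machinery. Resting T cells keep these genes low, and signals through the T cell receptor and CD28 bring them up ahead of the first division.

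Splenic CD4+ T cells of the mouse were isolated with magnetic beads. All 3 groups were stimulated for 12 hours with anti-CD3 and anti-CD28 antibodies at 1 µg/ml in medium with serum, so every group was activated and none was resting. ConCM cells received control conditioned medium. PlGFCM cells received conditioned medium containing placental growth factor (PlGF), a ligand of the VEGF family, from clones of HEK-293, a human embryonic kidney line, that overexpress its form PlGF2. IL6+ConCM cells received control medium with interleukin 6 at 20 ng/ml. Each group has 2 replicate samples, on 1 whole-transcript array each, and the comparisons ask what each addition changes in cells that are already activated. The labels give no strain, age or sex of the mice and leave unstated whether the replicates of a group were separate mice or cultures. The p-values below therefore describe the spread between samples within groups, pooled over the 3 groups and moderated by the spread of all genes. A gene thus has the same standard error (SE) in every comparison. In ConCM and IL6+ConCM the spread between samples may be technical only. The PlGFCM replicates differed in the sex-linked RNA Xist, as given below. Whether their cells came from mice of different sex was not tested. A medium made by clones can carry other differences than PlGF, and these cannot be told apart here. The values are log2 levels per probe set, so a difference of -0.37 corresponds to a relative level of 0.775, and the level of 1 probe set cannot be set against that of another.

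The 6 arrays had medians between 5.47 and 5.51 over all probe sets. PlGFCM replicate 2 stood apart: Xist, the RNA of the inactive X chromosome, was at 8.38 there and between 3.58 and 3.95 on the others, while the Y-linked Uty was at 7.50 there and between 7.77 and 8.14 elsewhere. The main counts of PlGFCM members are therefore also given without that array. CD4 T cell markers supported the label: 7 of 10 had a probe set of their own, with Cd3e between 11.84 and 12.17 and Cd4 between 11.13 and 11.40, and their summed log2 level was 74.6 and 73.7 on the ConCM arrays, 74.5 on each PlGFCM array, and 75.2 and 74.3 in IL6+ConCM. All 47 members had a mean above the median of all genes, the lowest being Orc1 at percentile 64.2, so a filter on low values removed none.

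Promoters are shown for the 4 members with the smallest p in PlGFCM minus ConCM, since those members were lower together and E2F is the textbook regulator of this set. The sequences are RefSeq's on GRCm38.p6, read 5′ to 3′ on the gene's strand. Capitals mark matches on either strand to an E2F motif (TTTCCCGC, TTTGGCGC, TTTCGCGC or TTTGCCGC, or the same letters without the leading T) or to the CCAAT box, with overlapping matches merged. The first 4 runs are the 150 bases before the annotated start.
Mcm6, chr1:128359706-128359855, minus strand: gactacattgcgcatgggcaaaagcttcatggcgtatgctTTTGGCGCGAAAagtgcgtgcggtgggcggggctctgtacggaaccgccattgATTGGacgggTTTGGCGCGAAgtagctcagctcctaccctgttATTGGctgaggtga
Prim1, chr10:128015065-128015214, plus strand: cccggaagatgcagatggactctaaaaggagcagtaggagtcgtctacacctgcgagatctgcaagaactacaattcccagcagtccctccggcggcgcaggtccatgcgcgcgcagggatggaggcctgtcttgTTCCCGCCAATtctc
Mcm3, chr1:20820313-20820462, minus strand: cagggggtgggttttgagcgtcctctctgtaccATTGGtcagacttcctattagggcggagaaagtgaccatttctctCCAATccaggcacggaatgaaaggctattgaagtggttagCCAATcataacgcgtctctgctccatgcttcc
Pold1, chr7:44548816-44548965, minus strand: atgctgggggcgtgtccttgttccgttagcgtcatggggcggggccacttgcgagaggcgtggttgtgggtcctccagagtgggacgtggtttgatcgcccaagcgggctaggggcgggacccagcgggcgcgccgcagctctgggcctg
In Mcm3 and Pold1 the E2F letters lay just after the start, within these 30 bases.
Mcm3, chr1:20820264-20820293, minus strand: GCGGGAAAacttgggaagtTTTGGCGCCAA
Pold1, chr7:44548766-44548795, minus strand: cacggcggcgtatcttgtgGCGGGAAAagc

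The promoter of Mcm6 held E2F letters of the 8-letter form from base -110 to -99 and from -47 to -40, counted from the start, with CCAAT boxes at -57 and -14. Mcm6 also had a 7-letter E2F match after the start, from base 25 to 31, which is not printed. The only E2F match of Prim1 was of the 7-letter form and ran from -15 to -9, sharing its last base with a CCAAT box. RefSeq windows of 250 bases before to 50 after the start were found for 39 of the 47 measured members. An 8-letter E2F match was in 17 of the 39 (43.6%), against 2.6% of 27025 genes with such a window. The 7-letter form, which the 8-letter form contains, was in 24 (61.5%), against 10.9% of all genes, and CCAAT was in 24 (61.5%), against 41.1%. Among genes outside the set, an 8-letter E2F match was in 10 of 36 further replication genes and in 5 of 18 G1 control genes (27.8% each), and in 1 of 20 G2 and mitosis genes, of which 17 held CCAAT. The 17 members with an 8-letter match had a median log2 difference of -0.28 in PlGFCM minus ConCM, and the other 22 had -0.22. In IL6+ConCM minus ConCM the order was turned, at -0.10 with a match and -0.13 without. These letters are a description of the windows, and binding was not measured.

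In PlGFCM, 46 of the 47 members were at a lower mean level than in ConCM, and the differences were small. The median was -0.23 on the log2 scale, against -0.01 over all genes, and the range ran from -0.43 (Orc1) to 0.26 (E2f2). No member passed limma's adjusted p of 0.05 over all genes, which 96 genes did (0.433%). The smallest adjusted p of a member was 0.155, for Mcm6. At an unadjusted p under 0.05, 28 members were lower, against 4.54% of all genes, and 0 were higher, against 4.19%. Both PlGFCM arrays lay below both ConCM arrays in 41 members, against 20.9% of all genes, and above them in 1, E2f2, against 17.3%. The 2 arrays a group allow no exact permutation p below 0.333.

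The shift did not rest on the array that stood apart, though its size and the p-values moved with it. Without PlGFCM replicate 2 the median was -0.20 and 45 members were lower. The remaining PlGFCM array lay below both ConCM arrays in 41, against 38.7% of all genes. Leaving out an array can only keep or raise such a count, so the unchanged 41 says nothing about the weight of that array. The number with an unadjusted p under 0.05 was then 9, against 4.86% of all genes, and the smallest adjusted p by limma was 0.445, for Mcm3. Without ConCM replicate 1 the median was -0.18 and that number was 11, against 2.75%. By role, the number with a lower mean was the same without PlGFCM replicate 2 but for nucleotide supply, where it was 3 of 4. Several of the larger differences were smaller without that array, at -0.24 for Mcm6, -0.23 for Orc1, -0.27 for Prim1, -0.20 for Chek1, -0.18 for Cdt1, -0.09 for Tyms and -0.14 for Tk1. Without ConCM replicate 1, Pola1 was at -0.10, Pcna at -0.12 and Gins3 at -0.16. In bulk samples fewer cells in S phase and less RNA per cell cannot be told apart.

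**Figure D1:**
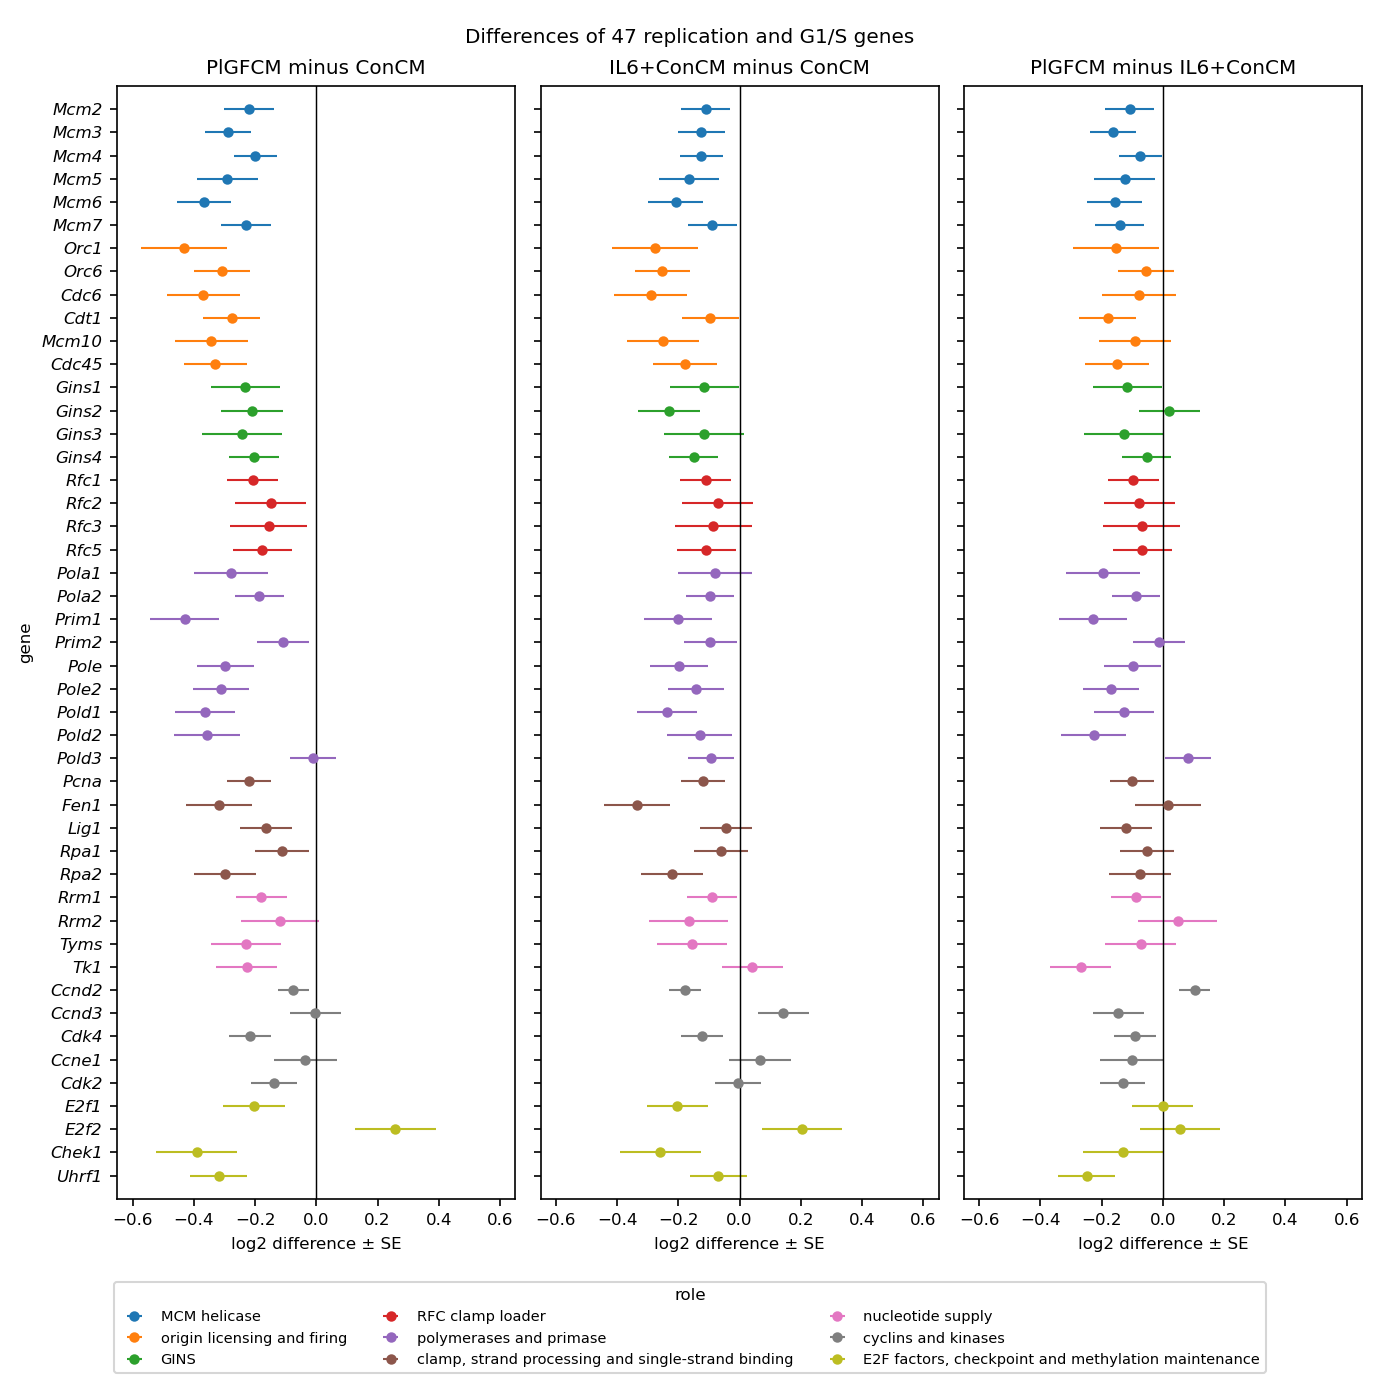
Log2 difference (horizontal axis) of each of the 47 measured members (vertical axis, coloured by role) in the 3 comparisons; points are limma estimates and bars their standard errors. In PlGFCM minus ConCM all points but E2f2 (0.26) lie left of 0, with Pold3, Ccnd3 and Ccne1 closest to it; the shift is smaller in the other panels.

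The MCM helicase was lower as a unit. All 6 subunits, Mcm2 to Mcm7, which form the ring that unwinds DNA at the fork, were lower in PlGFCM with no overlap with ConCM. They were at -0.20 to -0.37 with a median of -0.26, and each had an unadjusted p under 0.05 by limma, against 4.54% of all genes. For the counts by role here and below, 20.9% of all genes were lower without overlap in PlGFCM and 18.4% in IL6+ConCM. Mcm6 read 10.46 and 10.41 with ConCM, 10.19 and 9.94 with PlGFCM, and 10.31 and 10.14 in IL6+ConCM. Its difference was -0.37 ± 0.09 (SE) in PlGFCM, a relative level of 0.775, and -0.21 ± 0.09 in IL6+ConCM (limma adjusted p = 0.155 and 0.835). Each of its treated arrays lay below both ConCM arrays, which no other MCM subunit showed in IL6+ConCM. Mcm3 had log2 levels of 10.02 and 10.13 under ConCM, 9.82 and 9.75 under PlGFCM, and 10.02 and 9.87 in IL6+ConCM, so that IL6+ConCM replicate 1 was level with the lower ConCM array. Mcm5 was at 9.82 and 9.76 on the ConCM arrays, 9.58 and 9.42 on the PlGFCM arrays, and 9.78 and 9.48 in IL6+ConCM, where the replicates spanned the gap between the other groups. Its PlGFCM difference was -0.29 ± 0.10 (SE).

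The other MCM subunits had the same layout. Mcm2 read 10.12 and 10.04 with ConCM, 9.90 and 9.82 with PlGFCM, and 10.07 and 9.87 in IL6+ConCM. Mcm4 had log2 levels of 10.59 and 10.48 under ConCM, 10.33 and 10.34 under PlGFCM, and 10.48 and 10.34 in IL6+ConCM. Mcm7 was at 9.79 and 9.74 on the ConCM arrays, 9.55 and 9.52 on the PlGFCM arrays, and 9.78 and 9.57 in IL6+ConCM. In all 3, IL6+ConCM replicate 1 was at or above the lower ConCM value and replicate 2 was near the PlGFCM arrays.

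**Figure D2:**
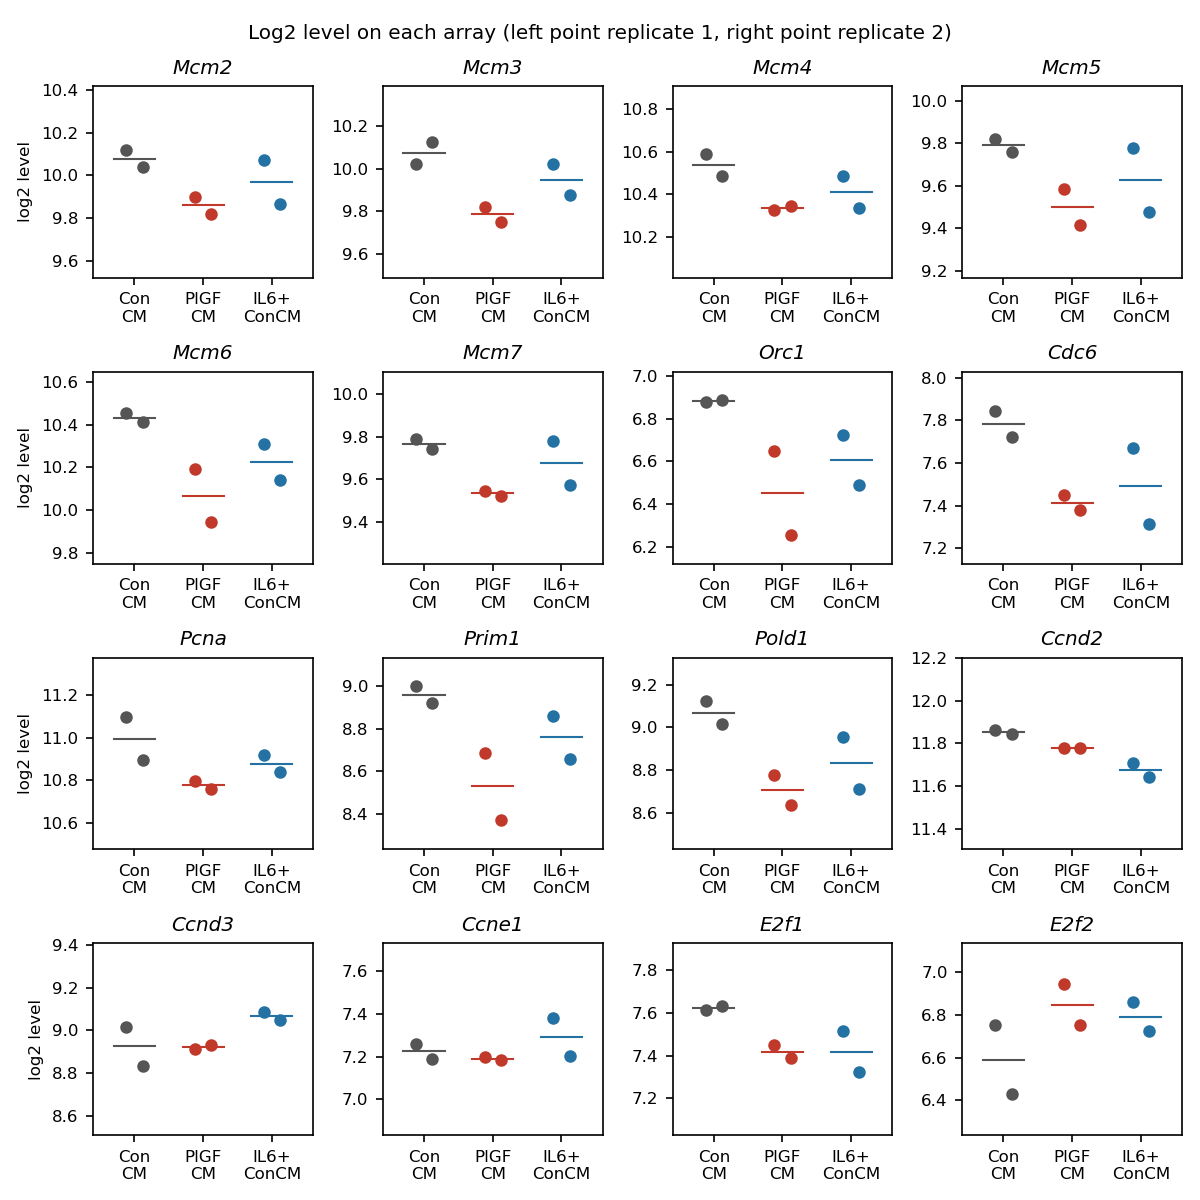
Log2 level (vertical axis, the same span of 0.9 in every panel) of 16 members on each of the 6 arrays by group; points are arrays, the left of a group being replicate 1, and lines are group means of 2 arrays. The PlGFCM points lie below the ConCM points for Mcm2 to Mcm7, Orc1, Cdc6, Pcna, Prim1, Pold1, Ccnd2 and E2f1, while Ccnd3 is highest in IL6+ConCM and E2f2 is lowest in ConCM.

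Origin licensing and firing genes had the lowest median of the 9 role groups, -0.34 in PlGFCM and -0.25 in IL6+ConCM, and all 6 were below ConCM without overlap in both comparisons. Without IL6+ConCM replicate 2 the latter median was -0.11. Orc1, the largest subunit of the origin recognition complex, read 6.88 and 6.89 with ConCM, 6.65 and 6.26 with PlGFCM, and 6.72 and 6.49 in IL6+ConCM. The PlGFCM difference was -0.43 ± 0.14 (SE, limma adjusted p = 0.347), with replicate 2 further down than replicate 1. Orc6, a small subunit of the same complex, had log2 levels of 8.46 and 8.37 under ConCM, 8.14 and 8.07 under PlGFCM, and 8.24 and 8.08 in IL6+ConCM. It was at -0.31 ± 0.09 in PlGFCM and -0.25 ± 0.09 in IL6+ConCM (SE). Cdc6, which loads MCM with Cdt1, was at -0.37 in PlGFCM and -0.29 in IL6+ConCM. Cdt1 had the smallest differences of this group, -0.28 and -0.10. Mcm10 and Cdc45, which act at the switch from loaded to working helicase, were at -0.34 and -0.33 in PlGFCM and at -0.25 and -0.18 in IL6+ConCM.

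GINS, the tetramer that activates the helicase, was lower in PlGFCM in all 4 subunits without overlap, within a narrow range of -0.20 (Gins4) to -0.24 (Gins3). Gins3 was at 7.65 and 7.48 on the ConCM arrays, 7.34 and 7.29 on the PlGFCM arrays, and 7.65 and 7.24 in IL6+ConCM. Its IL6+ConCM replicates lay at the 2 ends of the whole range, a wider spread than its difference from ConCM. The RFC clamp loader, which places PCNA on DNA, was lower in all 4 measured subunits without overlap, with a median of -0.17. Rfc1, the large subunit, read 8.67 and 8.55 with ConCM, 8.42 and 8.39 with PlGFCM, and 8.53 and 8.48 in IL6+ConCM, a PlGFCM difference of -0.21 ± 0.08 (SE). The other 3 subunits were at -0.15 to -0.18. Without PlGFCM replicate 2 the median of the 4 was -0.09.

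Polymerase and primase genes were lower in 9 of 9, with a median of -0.30, and 8 did not overlap ConCM. Prim1, the catalytic subunit of primase, had log2 levels of 9.00 and 8.92 under ConCM, 8.69 and 8.37 under PlGFCM, and 8.86 and 8.66 in IL6+ConCM. Its PlGFCM difference of -0.43 ± 0.11 (SE, limma adjusted p = 0.199) compares with -0.11 ± 0.09 for Prim2, the regulatory subunit of the same enzyme, though the gap between them was not tested. Pold1, the catalytic subunit of polymerase delta, was at 9.12 and 9.02 on the ConCM arrays, 8.78 and 8.63 on the PlGFCM arrays, and 8.95 and 8.71 in IL6+ConCM. It was at -0.36 ± 0.10 in PlGFCM and -0.24 ± 0.10 in IL6+ConCM (SE), without overlap in either. Pold2, an accessory subunit of that polymerase, read 9.04 and 8.86 with ConCM, 8.70 and 8.49 with PlGFCM, and 8.93 and 8.71 in IL6+ConCM. Pold3, another subunit, was the exception, at 9.12 and 9.08 on the ConCM arrays, 9.08 and 9.10 on the PlGFCM arrays, and 9.05 and 8.96 in IL6+ConCM, with a PlGFCM difference of -0.01 ± 0.08 (SE). Polymerase epsilon was lower in PlGFCM in both measured subunits, Pole at -0.30 and Pole2 at -0.31, and polymerase alpha at -0.28 (Pola1) and -0.19 (Pola2).

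Clamp, flap and single-strand binding genes were lower in 5 of 5 without overlap in PlGFCM, with a median of -0.22. Pcna, the sliding clamp, had log2 levels of 11.10 and 10.90 under ConCM, 10.80 and 10.76 under PlGFCM, and 10.92 and 10.84 in IL6+ConCM. The difference was -0.22 ± 0.07 in PlGFCM and -0.12 ± 0.07 in IL6+ConCM (SE). Fen1, the nuclease that trims Okazaki fragments, was at 7.19 and 7.13 on the ConCM arrays, 6.84 and 6.84 on the PlGFCM arrays, and 6.93 and 6.71 in IL6+ConCM. It is the member furthest below ConCM in IL6+ConCM, at -0.33 ± 0.11, about where it was in PlGFCM at -0.32 ± 0.11 (SE, limma adjusted p = 0.633 and 0.380). A dimmer probe set of Fen1 gave -0.58 in IL6+ConCM and -0.40 in PlGFCM. Rpa2, a subunit of the single-strand binding protein, was at -0.30 in PlGFCM, and Lig1, the ligase that joins the fragments, and Rpa1 were at -0.17 and -0.11.

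Nucleotide supply genes were lower in 4 of 4 in PlGFCM, but only 2 of them did not overlap ConCM, against 20.9% of all genes. Tyms, which makes thymidylate, read 7.74 and 7.55 with ConCM, 7.56 and 7.27 with PlGFCM, and 7.49 on both IL6+ConCM arrays. Its PlGFCM difference was -0.23 ± 0.11 (SE), with the upper PlGFCM array just above the lower ConCM array. Rrm2, the small subunit of ribonucleotide reductase, had log2 levels of 6.80 and 6.93 under ConCM, 6.92 and 6.58 under PlGFCM, and 6.77 and 6.63 in IL6+ConCM. Its PlGFCM difference of -0.12 ± 0.13 (SE) came from replicate 2: without that array it was 0.05. Tk1, the thymidine kinase of the salvage route, was at 7.51 and 7.47 on the ConCM arrays, 7.35 and 7.17 on the PlGFCM arrays, and 7.49 and 7.56 in IL6+ConCM, so both PlGFCM arrays were below the other 4. Rrm1, the large reductase subunit, was at -0.18 ± 0.08 (SE) in PlGFCM.

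Cyclins and their kinases had the smallest shift, with a median of -0.08 in PlGFCM and -0.01 in IL6+ConCM. In PlGFCM 3 of the 5 measured were lower without overlap. Cdk4, the partner of D-type cyclins, had the largest PlGFCM difference of them. It was at 10.43 and 10.30 on the ConCM arrays, 10.18 and 10.13 on the PlGFCM arrays, and 10.27 and 10.22 in IL6+ConCM. Like Ccnd2, Cdk4 was lower without overlap in both comparisons, at -0.22 ± 0.07 and -0.12 ± 0.07 (SE). Ccnd2, cyclin D2, read 11.86 and 11.84 with ConCM, 11.78 and 11.78 with PlGFCM, and 11.71 and 11.64 in IL6+ConCM. Its replicates lay close together, the 3 groups did not overlap, and IL6+ConCM was lowest, at -0.18 ± 0.05 (SE, limma adjusted p = 0.453, the smallest of any member in that comparison). Ccnd3, cyclin D3, was instead highest in IL6+ConCM, at 9.02 and 8.83 on the ConCM arrays, 8.91 and 8.93 on the PlGFCM arrays, and 9.09 and 9.05 in IL6+ConCM. It was 0.14 ± 0.08 (SE) higher in IL6+ConCM and the only member there with both arrays above both ConCM arrays. Ccne1, cyclin E1, had log2 levels of 7.26 and 7.19 under ConCM, 7.20 and 7.18 under PlGFCM, and 7.38 and 7.20 in IL6+ConCM, so each treated group overlapped ConCM. Cdk2, the kinase of cyclin E, was at -0.14 ± 0.07 in PlGFCM and -0.01 ± 0.07 in IL6+ConCM (SE).

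The 2 E2F factors lay on opposite sides of ConCM. E2f1, an activator of S phase genes, was at 7.61 and 7.63 on the ConCM arrays, 7.45 and 7.39 on the PlGFCM arrays, and 7.51 and 7.32 in IL6+ConCM, which is -0.20 ± 0.10 (SE) in either comparison. E2f2 read 6.75 and 6.43 with ConCM, 6.94 and 6.75 with PlGFCM, and 6.86 and 6.72 in IL6+ConCM. At 0.26 ± 0.13 and 0.20 ± 0.13 (SE, limma adjusted p = 0.621 and 0.981) it was the only member higher in PlGFCM, and the margin is thin, since ConCM replicate 1 and PlGFCM replicate 2 are equal to 2 decimals. Chek1, the checkpoint kinase that guards stalled forks, had log2 levels of 8.47 and 8.24 under ConCM, 8.16 and 7.78 under PlGFCM, and 8.20 and 7.996 in IL6+ConCM, a PlGFCM difference of -0.39 ± 0.13 (SE). Uhrf1, which passes DNA methylation to the new strand with Dnmt1, was at 8.26 and 8.18 on the ConCM arrays, 7.94 and 7.87 on the PlGFCM arrays, and 8.24 and 8.06 in IL6+ConCM, so both PlGFCM arrays were again below the other 4.

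Interleukin 6 in control medium gave a smaller shift that was not even between replicates. In IL6+ConCM, 43 of 47 members had a lower mean than in ConCM, with a median of -0.12, against -0.01 over all genes. No member passed limma's adjusted p, which 25 genes did (0.113%). At an unadjusted p under 0.05, 7 members were lower, against 3% of all genes, and 0 were higher, against 2.62%. Both IL6+ConCM arrays lay below both ConCM arrays in 25 members, against 18.4% of all genes, and above them in 1, Ccnd3, against 15.7%. The 4 members with a higher mean than ConCM were E2f2, Ccnd3, Ccne1 and Tk1.

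The replicates of IL6+ConCM differed in nearly every member. Replicate 1 was above replicate 2 in 46 of 47, the exception being Tk1, with a median gap of 0.15. The median absolute gap over all genes was 0.12 in that group. In PlGFCM replicate 1 was above replicate 2 in 38 members, with a median gap of 0.10, and in ConCM in 36, with 0.06. Without IL6+ConCM replicate 2 the median difference from ConCM was -0.06 and 35 members were lower. The remaining array was then below both ConCM arrays in 25, against 35.7% of all genes. Without ConCM replicate 1 the median was -0.07. In neither setting was the share of members lower at an unadjusted p under 0.05 above that of all genes. Without IL6+ConCM replicate 1 the median was -0.20. The remaining array was then below both ConCM arrays in 42 members, against 35.2% of all genes. The size of the IL6+ConCM shift thus depended on which array was read.

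The array medians show the same layering. The median deviation of the 47 members from their mean over the 6 arrays was 0.16 and 0.08 on the ConCM arrays, -0.07 and -0.16 on the PlGFCM arrays, and 0.07 and -0.09 on the IL6+ConCM arrays. IL6+ConCM replicate 1 was thus close to ConCM replicate 2, and IL6+ConCM replicate 2 close to PlGFCM replicate 1. The highest array of a member was ConCM replicate 1 in 29 cases and ConCM replicate 2 in 10. The lowest was PlGFCM replicate 2 in 31 and IL6+ConCM replicate 2 in 9. Over all 22180 genes the highest array was ConCM replicate 1 in 4906 and ConCM replicate 2 in 3375. The lowest was PlGFCM replicate 2 in 3800 and IL6+ConCM replicate 2 in 3483. The order of group means was ConCM, then IL6+ConCM, then PlGFCM in 38 of the 47 members. The share of all genes with that order was not counted.

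**Figure D3:**
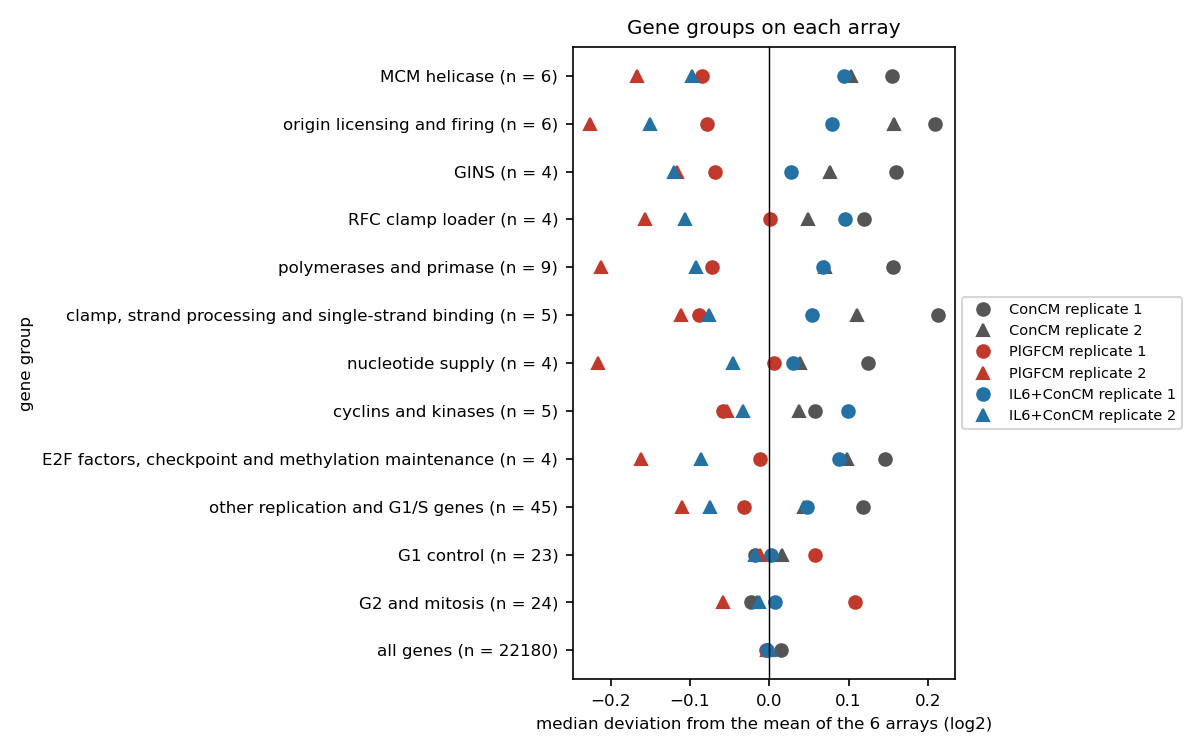
Median deviation from the mean of the 6 arrays (horizontal axis, log2) for each role group of members, for 3 lists of other cell cycle genes and for all genes (vertical axis, with the number of genes), 1 point per array. Members lie right of 0 on the ConCM arrays (0.16 and 0.08 over all 47) and mostly left of it on the PlGFCM arrays (-0.07 and -0.16), while IL6+ConCM replicates fall on either side and all genes stay near 0.

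PlGFCM set directly against IL6+ConCM showed little beyond the spread between replicates. The median of the members was -0.10, against -0.00 over all genes, and 41 were lower. Limma's adjusted p passed for 0 members and 7 genes (0.0316%). At an unadjusted p under 0.05, 2 members were lower, Tk1 and Uhrf1, against 1.81% of all genes, and 0 were higher, against 2.56%. Both PlGFCM arrays lay below both IL6+ConCM arrays in 15 members, against 14.9% of all genes, and above them in 2, Pold3 and Ccnd2, against 15.2%. The number of 15 was 8 when array medians were subtracted, 17% of the members against 12.9% of all genes, and 23 after quantile normalization, 48.9% against 17.6%. Without IL6+ConCM replicate 1 it was 31.9% of the members against 31.4% of all genes. Tk1 was at -0.27 ± 0.10 and Uhrf1 at -0.25 ± 0.09 (SE, limma adjusted p = 0.998 for each), and Pold2 and Mcm3 were next, at -0.23 ± 0.11 and -0.16 ± 0.08. Without PlGFCM replicate 2 the median was -0.04, without IL6+ConCM replicate 1 it was -0.03, and without IL6+ConCM replicate 2 it was -0.18. The comparisons of PlGFCM and of IL6+ConCM with ConCM share the ConCM arrays, so the values of a member in the 2 are not independent.

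Genes outside the set showed where the shift was and was not seen. Of 49 further replication and repair genes of S phase, 45 were measured. Their median was -0.17 in PlGFCM, with 40 lower, and -0.11 in IL6+ConCM, with 38 lower. In PlGFCM 17 were lower at an unadjusted p under 0.05 by limma, against 4.54% of all genes. In any comparison 0 passed limma's adjusted p. Without PlGFCM replicate 2 the PlGFCM median was -0.11 with 38 lower. The count of 17 fell without that array, to below the share of all genes, and also fell without ConCM replicate 1. It was 7 without an intensity trend, against 3.99% of all genes. In IL6+ConCM the median was -0.03 with 31 lower without IL6+ConCM replicate 2, and -0.05 with 33 lower without ConCM replicate 1. Tipin, a fork protection factor, was at -0.30 ± 0.09, Hells, a chromatin remodeller, at -0.37 ± 0.12, and Dut, the dUTPase, at -0.30 ± 0.10 in PlGFCM (SE). In IL6+ConCM, Dna2, a nuclease-helicase, was at -0.28, Rnaseh2a at -0.22 and Usp1 at -0.20. Ccna2, the S and G2 phase cyclin A2, read 7.33 and 7.54 with ConCM, 7.34 and 7.37 with PlGFCM, and 7.74 and 7.62 in IL6+ConCM, so it was highest with interleukin 6 (PlGFCM minus IL6+ConCM -0.33 ± 0.10, SE). Chaf1b, of the chromatin assembly factor, and Atad5, which unloads PCNA, were at -0.22 and -0.19 in that comparison.

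The 23 G1 control genes, which are the other cyclins, inhibitors, pocket proteins and E2Fs, had medians of -0.01 in PlGFCM and 0.03 in IL6+ConCM. Cdkn2d, the inhibitor p19 of Cdk4 and Cdk6, had log2 levels of 8.44 and 8.28 under ConCM, 8.97 and 8.76 under PlGFCM, and 8.83 and 8.83 in IL6+ConCM. All treated arrays lay above both ConCM arrays, with differences of 0.50 ± 0.09 and 0.47 ± 0.09 (SE, limma adjusted p = 0.0505 and 0.124), so it missed the threshold in each. In PlGFCM it passed after quantile normalization (0.0347), with either filter on low levels (0.0277 and 0.0338) and with a robust prior (0.0470), but not without an intensity trend (0.377) or without any of the 4 arrays of these groups (0.0896 to 0.335). E2f6, a repressor of the E2F family, and Tfdp1, the partner that E2F factors need to bind DNA, were at -0.37 and -0.27 in PlGFCM. Tfdp1 was at -0.18 in IL6+ConCM and Rbl2, a pocket protein, at 0.18. Between PlGFCM and IL6+ConCM, Cdk6 was at 0.21, the inhibitor Cdkn2c at -0.27 and Lin54 at 0.18.

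The 24 measured genes of G2 and mitosis were not shifted, with medians of 0.00 in PlGFCM and 0.02 in IL6+ConCM. PlGFCM replicates parted here: without replicate 2 the median was 0.12 and 3 of the 24 were lower, and without replicate 1 it was -0.08 and 17 were lower. Ccnb2, cyclin B2, was at 0.48 ± 0.14, Kif23, a kinesin of cell division, at 0.26 ± 0.13 and Cdca8, of the chromosomal passenger complex, at -0.23 ± 0.12 in PlGFCM (SE). None of the 3 passed limma's adjusted p, the lowest being 0.280 for Ccnb2. In IL6+ConCM, Bub1b was at -0.14, Kif23 at 0.15 and Ccnb2 at 0.16. Against IL6+ConCM, PlGFCM values were 0.32 for Ccnb2, 0.19 for Foxm1 and -0.18 for Birc5.

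Among 14 genes of T cell activation and growth, medians were -0.10 in PlGFCM and -0.13 in IL6+ConCM. Myc, the growth regulator that T cell activation induces, was at 11.16 and 11.05 on the ConCM arrays, 10.87 and 10.98 on the PlGFCM arrays, and 11.03 and 10.83 in IL6+ConCM. Slc2a1, a glucose transporter, was at 0.18 and Irf4, a transcription factor graded by receptor signal strength, at 0.15 in PlGFCM, each above ConCM, so activation genes did not go one way. Tbx21, the Th1 factor T-bet, was at -0.52, Cd69 at -0.23 and Nr4a1 at -0.20 in IL6+ConCM. Between PlGFCM and IL6+ConCM, Irf4 was at 0.27, Tnfrsf4 at 0.15 and Tbx21 at 0.26. None of these values passed limma's adjusted p.

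**Figure D4:**
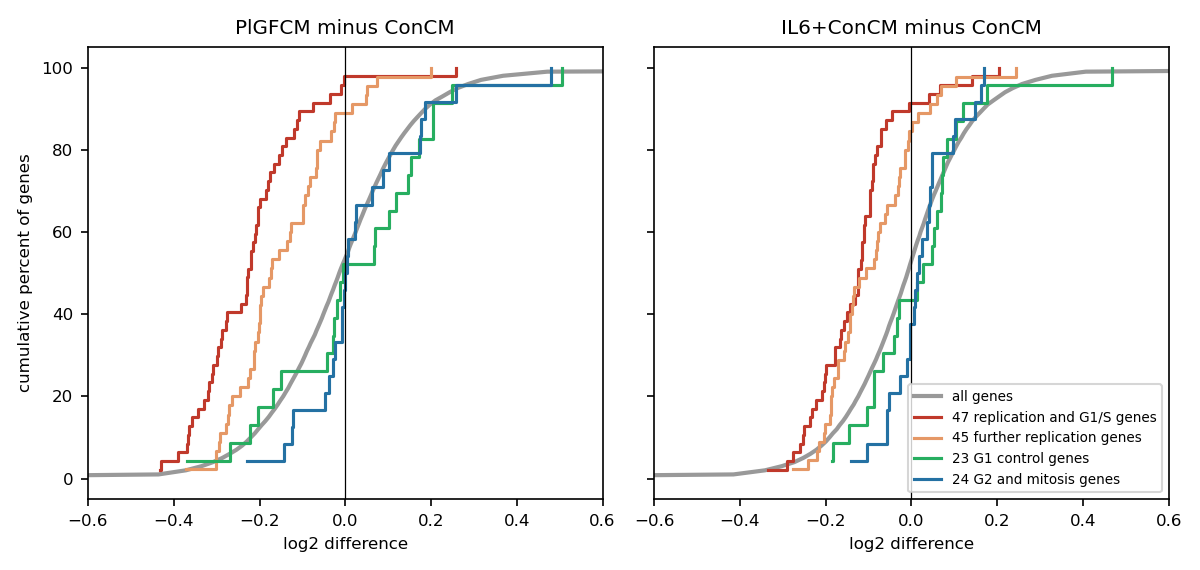
Cumulative percent of genes (vertical axis) by log2 difference (horizontal axis) for all 22180 genes, the 47 members, 45 further replication genes, 23 G1 control genes and 24 G2 and mitosis genes, in PlGFCM and in IL6+ConCM against ConCM. The members' median is -0.23 in PlGFCM and -0.12 in IL6+ConCM; the further replication genes are shifted less (-0.17 and -0.11), and the G2 and mitosis curve crosses the middle near 0.

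Markers of other cells were examined beside these values. The summed log2 level of 7 myeloid markers was 42.5 and 42.2 on the ConCM arrays, 44.0 and 43.1 in PlGFCM, and 42.8 and 42.7 in IL6+ConCM. In PlGFCM, 4 of the 7 were above ConCM without overlap, against 17.3% of all genes. The median of the 7 there was 0.10, and 3 had a lower mean, Itgam the lowest at -0.15. Cd14 was at 0.67 ± 0.14 there (SE, limma adjusted p = 0.0806), with Adgre1 at 0.38 and Lyz2 at 0.31. The sum over 6 of 7 B cell markers was 40.08 and 40.03 on the ConCM arrays, 40.15 and 39.95 in PlGFCM, and 40.07 and 39.86 in IL6+ConCM. Ms4a1, the B cell antigen CD20, fell by 0.84 in PlGFCM (limma adjusted p = 0.0125), a call lost without any of the 4 arrays of these groups (0.0698 to 0.118) and without an intensity trend (0.0996), while Pax5 and Cd79b were at 0.31 and 0.33. For 6 markers of NK and CD8 T cells the sum was 35.0 and 34.6 on the ConCM arrays, 33.8 and 34.8 in PlGFCM, and 34.9 and 34.2 in IL6+ConCM. For 5 of dendritic cells it was 28.6 and 29.1, 28.8 and 28.6, and 27.9 and 28.8 in the same order. The part of other cells in the replication gene values was not tested.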

How the data were processed

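The deposited table holds log2 levels of 41345 probe sets on 6 arrays (2 per group, range 1.15 to 13.4), as deposited by the authors; the submitters' processing notes name Transcriptome Analysis Console. For its version, the normalization and the genome build, the answer is "not given in the sources used here". Arrays have no read depth, and their number limits the precision. The platform annotation lists 25335 probe sets, 23521 with 1 symbol and 1814 with several, which were left out. The brightest probe set per gene gave 22180 genes, with no filter. Of the members, 43 had 1 probe set and 4 had 2 (Pole, Fen1, Rpa1, Rrm2). The RefSeq table held the gene IDs of all 51 member probe sets and changed 0 symbols.

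Group means were fitted to all 6 arrays with limma 3.58.1 (R 4.3.3), lmFit and eBayes with an intensity trend, and p-values were adjusted by Benjamini-Hochberg over all genes, two-sided. The script was tested on simulated data with 200 changed genes. Alternatives were another scaling, filters, probe set means, eBayes without trend or with a robust prior, a replicate block, separate fits and leaving out each array. Non-overlap under other scalings and without single arrays was added after seeing the data.

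The members, gene lists and promoter motifs were chosen with earlier results of these data known. Values per array are given for Mcm2 to Mcm7, Pcna, Rrm2, Tyms, Ccnd2, Ccnd3, Cdk4, Ccne1 and E2f1, the 4 members with the smallest p in each comparison, and the member of each role group with the largest PlGFCM difference; of other lists, up to 3 genes by p. E2f2, Pold3 and Myc arrays, and other members given by their difference alone, were chosen after their values were seen.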

Additional observations from a re-analysis of the deposited data

How the results depend on the processing

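Under all 15 alternatives 0 members passed limma's adjusted p in any comparison, the lowest values being 0.0808 for PlGFCM minus ConCM, 0.190 for IL6+ConCM minus ConCM and 0.743 for PlGFCM minus IL6+ConCM. The median of the members kept its sign, ranging from -0.27 to -0.18, -0.20 to -0.06 and -0.18 to -0.03. The sign of single members changed under some alternative for 4, 10 and 19 of the 47, in the same order. The number of members lower in PlGFCM with an unadjusted p under 0.05 was 17 without an intensity trend, and 9 to 29 when 1 array was left out. Over all genes the number past the adjusted p ranged from 6 to 168, 1 to 53 and 0 to 10. Over all genes, same-numbered arrays had correlations of deviations of -0.04, 0.11 and 0.03. Among the 47 members, replicate 1 was above replicate 2 in 36 in ConCM, 38 in PlGFCM and 46 in IL6+ConCM. Whether replicate numbers pair the samples is therefore not settled for this set. With a replicate block the medians were unchanged at -0.23, -0.12 and -0.10, 0 members passed, and 62, 16 and 5 genes passed. At an unadjusted p under 0.05 by limma, 32, 13 and 6 members were then lower, in the same order. The shares over all genes were 5.42%, 3.50% and 2.12%.

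Members below the other group on every array numbered 41 to 45 for PlGFCM minus ConCM when 1 array was left out. They numbered 25 to 42 for IL6+ConCM minus ConCM and 15 to 42 for PlGFCM minus IL6+ConCM. Such a count can only stay or rise when an array is left out, so the lower ends are the counts on all arrays. The share over all genes under these settings was 34.3% to 38.7%, 33.1% to 38% and 31.4% to 33.8%. Without IL6+ConCM replicate 1 the 15 of PlGFCM minus IL6+ConCM (31.9%) lay at the level of all genes (31.4%). On all arrays the 15 stood against 14.9% of all genes. That count on all arrays was 23 after quantile normalization and 8 with array medians subtracted. The cause was not tested.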
